A study of Zea mays with 6 samples.

Results

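The genes described here are the maize members of the AP1/FUL and SOC1 classes of MADS-box transcription factors, measured in the immature ear of 2 lines. They were taken by annotation: a gene was a member if its best Swiss-Prot match in the deposited count table was the rice protein named MADS-box transcription factor 14, 15, 18, 20, 50 or 56, with a limit of 10 genes chosen by their summed counts over the 6 libraries. Of 42508 genes in the table, 11 carried such a name: 3 were named MADS14, 3 MADS18, 2 MADS15, 2 MADS56, 1 MADS20 and 0 MADS50. The limit removed 1 of 2 MADS18 genes that had 0 reads in every library, so the last place was a tie, while the member just above it had 884 reads in all. The summed counts take no account of line. The 10 members comprise 8 of the AP1/FUL class and 2 of the SOC1 class. Of these, 9 passed the filter on low counts.

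RNA came from nearly isogenic recombinant inbred lines of a teosinte by maize cross. Line B46 is maize at qKRN5.04b, a chromosome 5 locus for the number of kernel rows, and line A12 is teosinte there. All plants were grown under standard conditions, and each line has 3 libraries from a single stated batch. A library combines ears of 1.5 to 2.0 mm from no fewer than 50 plants with 6 to 9 leaves, so a value is a mean over pooled plants of 1 line per genotype.

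MADS-box factors bind DNA as dimers and larger complexes through the MADS domain, and the K-box helps the proteins pair. AP1/FUL class genes turn shoot meristems into inflorescence and floral meristems, and in grasses MADS14, MADS15 and MADS18 are widely used as markers of the change to flowering. In rice these 3 genes act together with MADS34, a class E factor, in setting inflorescence meristem identity. SOC1 class genes pass signals of day length and age to the meristem. In rice MADS50 promotes flowering and MADS56 delays it under long days. Names below are those of the best rice match, and several maize genes share a name.

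Total gene counts, which set the precision of each level, were 14625831 to 15675012 per library. The tissue label was matched by KNOTTED 1 (Zm00004b005000), a homeobox gene of meristems, at 287 to 555 CPM (counts scaled to library size with TMM) over the 6 libraries. A list of 23 genes was matched as ear and inflorescence meristem markers, of which 6 had 0 reads in each line. Their summed level was 512 to 552 CPM in B46 and 564 to 645 CPM in A12. The markers did not move together. Of 10 tested as described below, 2 were called as higher in A12, 1 as lower and 7 not (median log2 fold change -0.21). The knotted-1-like 7 gene (Zm00004b005003) went from a mean of 169 CPM in B46 to 335 CPM in A12. The 72 matched leaf or husk markers, of which 12 had 0 reads in all B46 libraries and 14 in all A12 libraries, summed to 198 to 287 CPM in B46 and to 718, 136 and 292 CPM in A12 replicates 1, 2 and 3. A12 replicate 1 thus stood apart in leaf markers, and it also had the highest sums of the floral organ MADS-box classes given further on. B46 replicate 3 stood apart from its line in most of the members, as described with their values.

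Of the 9 members tested, MADS20 fell in A12 and the other 8 were not called (edgeR quasi-likelihood test, adjusted p under 0.05). Over all 22741 genes tested, 9.86% were called, 4.61% as higher and 5.25% as lower in A12. A count of 1 in 9 is near that background, so the count by itself is not a result about these genes. The median log2 fold change of the tested members, A12 minus B46, was -0.12, against 0.01 over all genes tested. An unadjusted p under 0.05 was found for 3 of 9 members and for 27.2% of all genes tested. The libraries of the lines did not overlap for 2 of 9 members, MADS20 and the MADS14 gene of chromosome 1, and for 33.4% of all genes tested, 17.2% as lower and 16.2% as higher in A12. Without A12 replicate 1, 4 of the 9 members were called, and the count over all genes rose from 2242 to 4446.

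**Figure D1:**
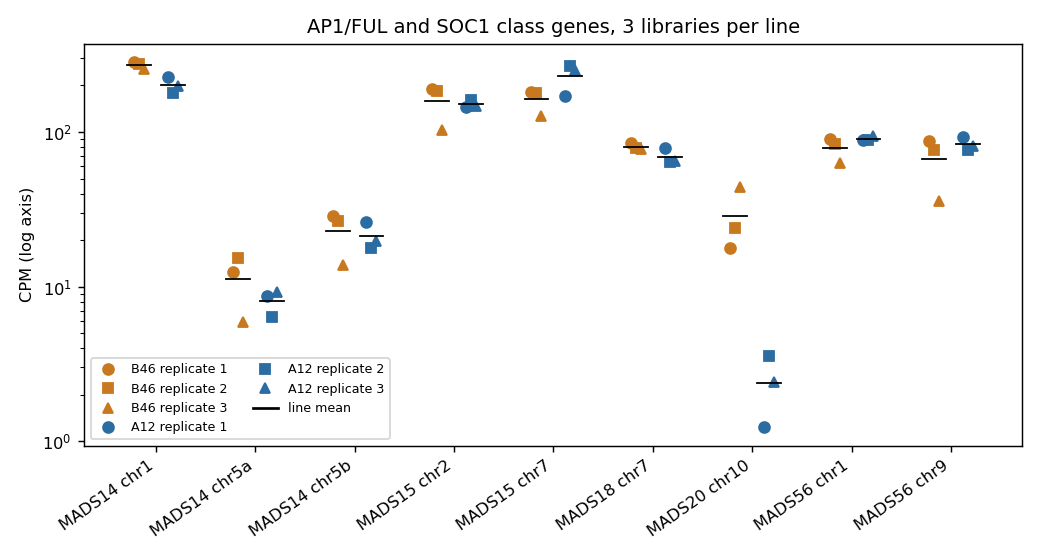
Level of each tested member in every library, in CPM on a log axis, with B46 in orange, A12 in blue, a symbol per replicate number and a black bar at the line mean. MADS14 chr5a is Zm00004b011240 and chr5b is Zm00004b011242. MADS20 is the member whose B46 libraries (17.9 to 44.1 CPM) all lie far above its A12 libraries (1.23 to 3.55 CPM), and the triangles show B46 replicate 3 as the lowest B46 library of the other 8 members.

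MADS20 (Zm00004b038157) lies on chromosome 10 from 16491734 to 16497079 on the plus strand, and the table lists both a MADS domain and a K-box for it. It belongs to the FUL-like genes of grasses. It had 273, 376 and 683 reads in B46 replicates 1, 2 and 3 and 18, 51 and 37 reads in A12 replicates 1, 2 and 3. Every B46 library was above every A12 library, although each line varied by more than a doubling. The level was 28.7 ± 13.7 CPM in B46 and 2.39 ± 1.16 CPM in A12 (SD, n = 3), a mean 12-fold higher in B46. MADS20 fell by 3.58 on the log2 scale in A12 (SE 0.46, 95% interval -4.65 to -2.51, edgeR adjusted p = 0.0059). By log2 fold change it ranked 116 among the 1194 genes called as lower. It was called in all 14 alternative analyses, with the highest edgeR adjusted p, 0.0486, when A12 replicate 3 was left out. The ears are whole tissue, so fewer cells with MADS20 RNA and less MADS20 RNA per cell cannot be told apart here or for any gene below.

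Within 1 Mb on each side of MADS20, 15 other genes were tested and 1 fell in A12, or 6.67%, near the 9.86% called over all genes tested. The nearest tested gene on the lower side, a SPIRAL1-like microtubule protein gene (Zm00004b038156), had mean levels of 64.8 CPM in B46 and 70.7 CPM in A12 (edgeR adjusted p = 0.69). The nearest on the other side, Zm00004b038158, has no Swiss-Prot match and had 6.50 and 7.56 CPM (edgeR adjusted p = 0.63). For the other members, 1 to 9 of 37 to 72 tested neighbours within the same distance were called, at most 12.5%.

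**Figure D2:**
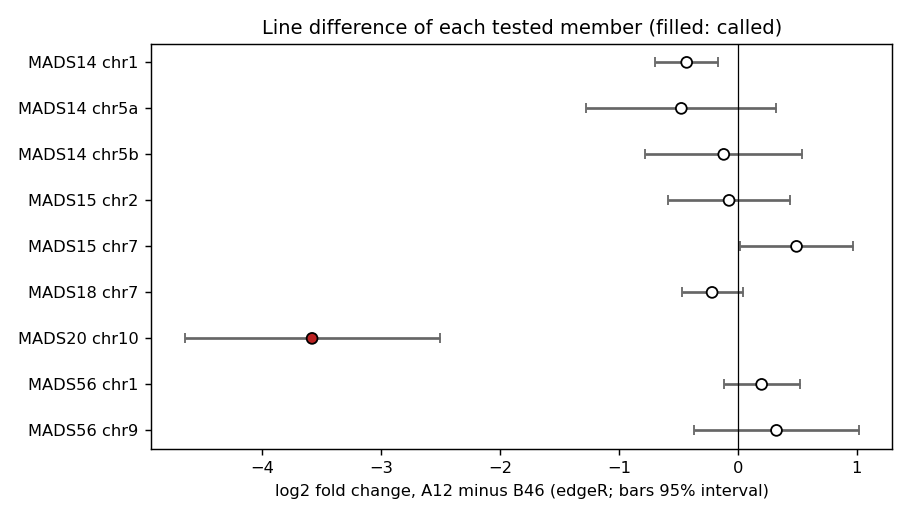
Log2 fold change of each tested member, A12 minus B46, from edgeR, with bars for the 95% interval and a filled point where the gene was called. MADS20 sits at -3.58, while the other 8 lie between -0.47 and 0.49.

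The 3 genes named MADS14, a promoter of inflorescence and spikelet meristem identity in rice, had lower mean levels in A12 than in B46. None of them was called by edgeR. The gene on chromosome 1 (Zm00004b005152, 284904511 to 284934291, minus strand) had 4318, 4314 and 3949 reads in the B46 libraries and 3340, 2567 and 3041 in those of A12. Every A12 library was below every B46 library. Its level was 271 ± 14.3 CPM in B46 and 201 ± 24.8 CPM in A12 (SD, n = 3; log2 fold change -0.43, SE 0.11, 95% interval -0.69 to -0.16, edgeR adjusted p = 0.056). It passed the threshold with DESeq2 (adjusted p = 0.0117) and with edgeR without A12 replicate 1 (adjusted p = 0.0082). Over the 14 alternatives its log2 fold change stayed negative, from -0.53 to -0.35, with adjusted p from 0.0082 to 0.202.

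The other 2 MADS14 models lie side by side on the plus strand of chromosome 5. Zm00004b011240, from 7507418 to 7507684, is a model of 267 bases placed by the table in the M-type MADS family and listed with no Pfam domain. Zm00004b011242, from 7528336 to 7534919, starts 20.7 kb further on and is listed with a K-box and no MADS domain. A single model between them, on the opposite strand, has at most 2 reads per library. The sources used here do not say whether the 2 models are parts of 1 gene. The short model had 191, 241 and 91 reads in the B46 libraries and 127, 92 and 142 in those of A12. The long model had 439, 414 and 213 reads in the B46 libraries and 383, 254 and 304 in those of A12. In both, the lines overlapped and B46 replicate 3 was the lowest of its line. Their log2 fold changes were -0.47 (SE 0.34, 95% interval -1.28 to 0.33, edgeR adjusted p = 0.42) and -0.12 (SE 0.28, 95% interval -0.78 to 0.54, edgeR adjusted p = 0.83). Summed to 1 gene, a choice made after seeing the data, they had 630, 655 and 304 reads in the B46 libraries and 510, 346 and 446 in those of A12 (log2 fold change -0.23 with SE 0.29 by edgeR, adjusted p = 0.66).

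The 2 genes named MADS15, the closest relative of MADS14 in rice, were the most abundant members per length, and neither was called. The chromosome 7 gene (Zm00004b034685, 2364830 to 2376505, plus strand) had 2774, 2818 and 1965 reads in the B46 libraries and 2512, 3827 and 3858 in those of A12. A12 replicates 2 and 3 were above all B46 libraries, while A12 replicate 1 lay within their range. Its level was 163 ± 31 CPM in B46 and 229 ± 50.9 CPM in A12 (log2 fold change 0.49, SE 0.20, 95% interval 0.02 to 0.97, edgeR adjusted p = 0.17), and it was called without A12 replicate 1 (log2 fold change 0.67, edgeR adjusted p = 0.0236). The chromosome 2 gene (Zm00004b010792, 243114950 to 243124340, minus strand) had 2909, 2883 and 1593 reads in the B46 libraries and 2127, 2307 and 2284 in those of A12. All 3 A12 libraries lay between B46 replicate 3 and the other B46 libraries. Its log2 fold change was -0.07 (SE 0.22, 95% interval -0.59 to 0.44, edgeR adjusted p = 0.86). The ratio of the chromosome 7 to the chromosome 2 gene, in deposited FPKM, was 0.98, 1.0 and 1.26 in B46 and 1.21, 1.70 and 1.73 in A12. These ratios overlap between the lines, at B46 replicate 3 and A12 replicate 1, and reads of similar copies may be split between them.

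Of the MADS18 genes, a FUL-like class that promotes flowering in rice, only the chromosome 7 gene had reads. Zm00004b037263 (168692166 to 168698860, plus strand) had 1298, 1231 and 1203 reads in the B46 libraries and 1157, 920 and 999 in those of A12. In CPM it varied little, at 80.4 ± 3.99 in B46 and 69.2 ± 8.35 in A12, and A12 replicate 1 at 78.9 lay within the B46 range. Its log2 fold change was -0.22 (SE 0.11, 95% interval -0.47 to 0.04, edgeR adjusted p = 0.25), and it was called as lower without A12 replicate 1 (-0.32, edgeR adjusted p = 0.0338). The member on chromosome 2 (Zm00004b009868, 216524144 to 216527410, K-box only) and the gene left out by the limit, on chromosome 6 (Zm00004b029923), had 0 reads in all 6 libraries. A count of 0 allows up to 3 reads, or 0.191 to 0.209 CPM per library, for counting error only.

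Both SOC1 class members are named MADS56, and neither was called. The chromosome 1 gene (Zm00004b000161, 5299521 to 5316246, minus strand) had 1371, 1308 and 978 reads in the B46 libraries and 1299, 1279 and 1451 in those of A12. The chromosome 9 gene (Zm00004b034530, 160175725 to 160195836, plus strand) had 1335, 1203 and 551 reads in the B46 libraries and 1354, 1101 and 1255 in those of A12. In both genes the A12 libraries were close to B46 replicates 1 and 2, and B46 replicate 3 was the lowest library of all. Their log2 fold changes were 0.20 (SE 0.14, 95% interval -0.12 to 0.52, edgeR adjusted p = 0.39) and 0.33 (SE 0.30, 95% interval -0.37 to 1.02, edgeR adjusted p = 0.52). Without B46 replicate 3, the chromosome 9 gene was nearly level between the lines, at a log2 fold change of 0.02. Neither was called in any of the 14 alternatives.

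Compared per length, in deposited FPKM, the MADS15 genes were the highest members and MADS20 was among the lowest. Over all 6 libraries the mean level was 135 ± 35.9 FPKM for MADS15 of chromosome 7 and 104 ± 21.2 for MADS15 of chromosome 2. MADS14 of chromosome 1 followed at 67.1 ± 12 FPKM and MADS56 of chromosome 1 at 52.0 ± 6.79. Next came MADS18 at 47.9 ± 5.47, MADS56 of chromosome 9 at 39.0 ± 10.6 and the short MADS14 model at 36.2 ± 13.7. MADS20 at 11.9 ± 12.8 and the long MADS14 model at 9.62 ± 2.58 were the lowest (SD, n = 6). These SDs span both lines, and that of MADS20 includes its line difference, with means of 21.9 FPKM in B46 and 1.825 FPKM in A12. By line mean, MADS20 ranked 8 in B46 and 9 in A12. The ranges of every pair of neighbours in this order overlapped. The values of the 3 MADS14 models rest on model lengths that may be incomplete.

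The sum of the class overlapped between the lines. The shares of MADS20 and of MADS15 of chromosome 7 did not overlap, although the CPM of the latter gene did. In CPM, 33.4% of all genes tested did not overlap between the lines, and no such background was computed for shares. The AP1/FUL members summed to 460, 463 and 340 FPKM in B46 and 377, 417 and 412 FPKM in A12. MADS20 supplied 2.96%, 3.96% and 9.90% of that sum in B46 replicates 1, 2 and 3 and 0.25%, 0.65% and 0.44% in A12. MADS15 of chromosome 7 supplied 27.1%, 26.7% and 25.6% in B46 and 31.4%, 43.9% and 41.5% in A12. The shares of a sum depend on each other, and no test was run on them. The SOC1 members summed to 82.9 ± 22.7 FPKM in B46 and 99.0 ± 4.19 FPKM in A12.

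**Figure D3:**
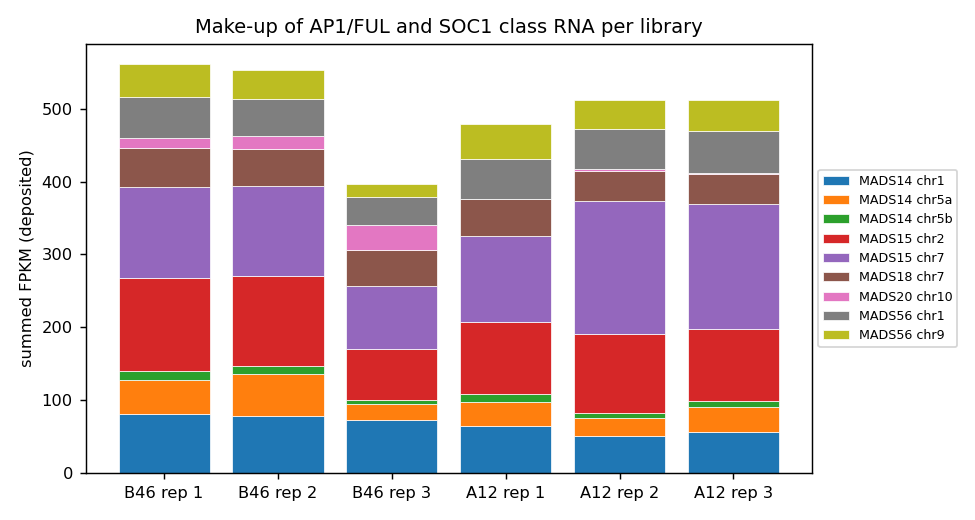
Deposited FPKM of the 9 tested members, stacked per library, so that the bar height is their sum. The sums lie between 397 FPKM in B46 replicate 3 and 561 FPKM in B46 replicate 1, and the pink MADS20 segment, visible in the B46 bars, is nearly gone in the A12 bars.

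B46 replicate 3 differed from the other B46 libraries in the members, and MADS20 went the other way from the rest. It was the lowest B46 library for 8 of 9 members, against 39.2% of all genes tested. The ratio of B46 replicate 3 to the mean of B46 replicates 1 and 2 was 0.42 for the short MADS14 model, 0.43 for MADS56 of chromosome 9, 0.50 for the long MADS14 model and 0.55 for MADS15 of chromosome 2. For MADS14 of chromosome 1 and MADS18 it was 0.91 and 0.95, and for MADS20 it was 2.11. Over all genes tested the median ratio was 1.0 and the middle 80% of genes lay between 0.76 and 1.45. In A12, replicate 1 was the lowest library for MADS20, at 0.41 times the mean of the other A12 libraries. For MADS15 of chromosome 7 it was also the lowest, at 0.66 times. It was the lowest by little for MADS15 of chromosome 2 and MADS56 of chromosome 1, at 0.94 and 0.97 times. The share of all genes lowest in A12 replicate 1 was not computed. Deviations from the line means over the 6 libraries gave MADS20 a Pearson r of -0.95 with MADS14 of chromosome 1. With the long MADS14 model its r was -0.92. The 2 MADS56 genes had an r of 0.95 with each other, but this was not particular to the pair. MADS56 of chromosome 9 had an r of 0.96 with the long MADS14 model. MADS56 of chromosome 1 had an r of 0.95 with MADS15 of chromosome 2. These are descriptions over 6 points that share libraries and line means.

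**Figure D4:**
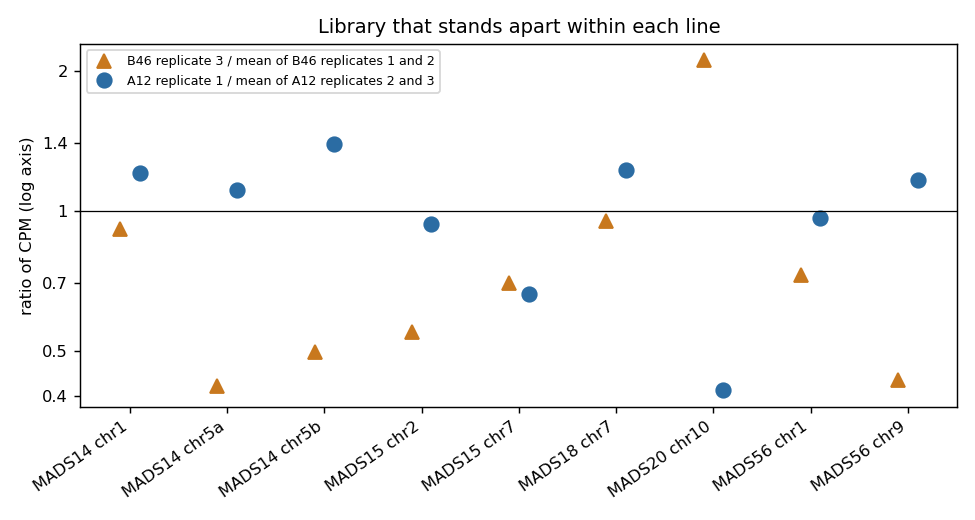
Ratio of CPM, on a log axis, of B46 replicate 3 to the mean of B46 replicates 1 and 2 (triangles) and of A12 replicate 1 to the mean of A12 replicates 2 and 3 (circles) for each tested member. MADS20 lies at 2.11 and 0.41, the highest triangle and the lowest circle, and the other 8 triangles lie below 1.

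The MADS14 genes were the members with other MADS-box genes within 1 Mb, and in both places the neighbour was named MADS34, the class E partner of MADS14 in rice. On chromosome 1, MADS34 (Zm00004b005154, 285074019 to 285083744) lies 140 kb from MADS14 on the same strand. It had 1193, 1086 and 809 reads in the B46 libraries and 977, 1201 and 1151 in those of A12 (log2 fold change 0.17 with SE 0.16 by edgeR, adjusted p = 0.54). On chromosome 5, MADS34 (Zm00004b011239, 7480442 to 7487207) lies 20.2 kb before the short MADS14 model on the same strand. It had 621, 555 and 158 reads in the B46 libraries and 787, 707 and 806 in those of A12 (log2 fold change 0.85 with SE 0.42 by edgeR, adjusted p = 0.25). A12 was above B46 in every library of that gene, as for 16.2% of all genes tested. B46 replicate 3 was its lowest library, as for both MADS14 models beside it. That replicate was the lowest B46 library for 39.2% of all genes tested. Neither MADS34 gene was called in any alternative.

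The other MADS-box classes are given as counts beside the members. For comparison, 4.61% of all genes tested were called as higher and 5.25% as lower in A12. Of 8 tested class E genes, which act with all floral organ classes, 6 rose and 2, both MADS34, were not called (median log2 fold change 7.75). The 2 AGL6 class genes, of the floral meristem, and all 4 tested class B genes, of lodicules and stamens, rose (medians 8.49 and 6.60). Of 5 tested class C and D genes, of stamens, carpels and ovules, 4 rose (median 6.49). The names matched 10 class E, 2 AGL6 class, 13 class B and 8 class C and D genes, and those not tested failed the filter on low counts. Genes with few or no reads in B46 could pass that filter only through A12, where they are high. Their rise is thus partly fixed by the filter, and the size of these medians rests largely on B46 counts near the floor. Of 5 tested genes of the AGL17 and AGL12 type, 0 were called by edgeR or DESeq2 (median 0.17). An unadjusted p under 0.05 was found for 2 of them and for 27.2% of all genes tested. All 4 tested SVP class genes, whose rice members act in meristem identity and hormone response, fell (median -5.30). Some of these counts fell when 1 library was left out, as did the count over all genes in most such settings. Without B46 replicate 2 the calls were 3 in class E and 1 in class B, and 432 over all genes against 2242. The AGL6 class kept 2 calls whichever library was left out, and the SVP class kept 3 or 4. Class C and D calls went to 0 of 5 by edgeR when any B46 library, or A12 replicate 3, was left out. Some calls in these classes, those of both MADS3 genes among them, were also lost under other alternatives that kept all 6 libraries. Class B calls went to 2 of 4 without B46 replicate 1, without B46 replicate 3 and without A12 replicate 3.

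The genes of lowest adjusted p in each class show levels on either side of MADS20. MADS5 (Zm00004b031849) rose from 8.22 ± 4.05 to 93.2 ± 9.13 CPM and MADS1 (Zm00004b034170) from 0.298 ± 0.515 to 68.9 ± 49.4 CPM (edgeR adjusted p = 0.0032 and 0.0055). The MADS6 genes Zm00004b022334 and Zm00004b014719 had 1 and 8 reads in all of B46 and means of 17.2 and 40.3 CPM in A12 (edgeR adjusted p = 0.0010 and 0.0013). MADS16 (Zm00004b029254) and MADS2 (Zm00004b018236) rose from 0.558 to 45.1 and from 19.6 to 53.3 CPM (edgeR adjusted p = 0.0018 and 0.0078), the latter not without B46 replicate 2 (0.0548). The MADS3 genes Zm00004b015751 and Zm00004b025115 rose to 4.61 ± 4.2 and 3.79 ± 2.93 CPM (edgeR adjusted p = 0.015 and 0.020), but not when any B46 library, or A12 replicate 3, was left out (up to 0.0801 and 0.0940). In the opposite direction, the SVP class genes named MADS55 fell from 121 ± 46.9 to 2.43 ± 0.30 CPM (Zm00004b022967) and from 65.1 ± 24.0 to 1.47 ± 0.96 CPM (Zm00004b015192; edgeR adjusted p = 0.00027 and 0.0013).

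The libraries fell in a like or opposite order for MADS20 and some of these classes. From high to low, MADS20 ran through B46 replicates 3, 2 and 1 and then A12 replicates 2, 3 and 1. The summed SVP class ran in the same order, at 516, 266 and 226 CPM in B46 replicates 3, 2 and 1 and 23.8, 19.6 and 14.5 CPM in A12 replicates 2, 3 and 1. All 4 SVP genes were highest in B46 replicate 3, as are 40.8% of all genes tested, but in 2 of them, Zm00004b022967 and Zm00004b000584, the A12 libraries ran in the order 1, 3 and 2. The summed class E genes ran in exactly the reverse order, from 850 CPM in A12 replicate 1 through 455 and 301 in A12 replicates 3 and 2 to 129, 119 and 66.0 in B46 replicates 1, 2 and 3. In B46 most of the class E sum came from the 2 MADS34 genes, which were not called, at means of 66.5 and 28.8 CPM. MADS5, which rose, had 159, 168 and 55 reads in B46 replicates 1, 2 and 3, another order. The other class E genes that rose had at most 18 reads per B46 library. The summed class C and D genes were also in the reverse order. In B46 most of their sum came from MADS21 (Zm00004b032502), which was not called, with 89, 79 and 63 reads. The AGL6 and class B sums had the reverse order in the A12 libraries but not in the B46 libraries. The summed leaf or husk markers ran in neither order, with A12 replicate 1 at the top and A12 replicate 2 at the bottom. These orders were noticed after the values were seen, and the part of ear stage, floral organ tissue or leaf tissue in the fall of MADS20 was not tested.

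**Figure D5:**
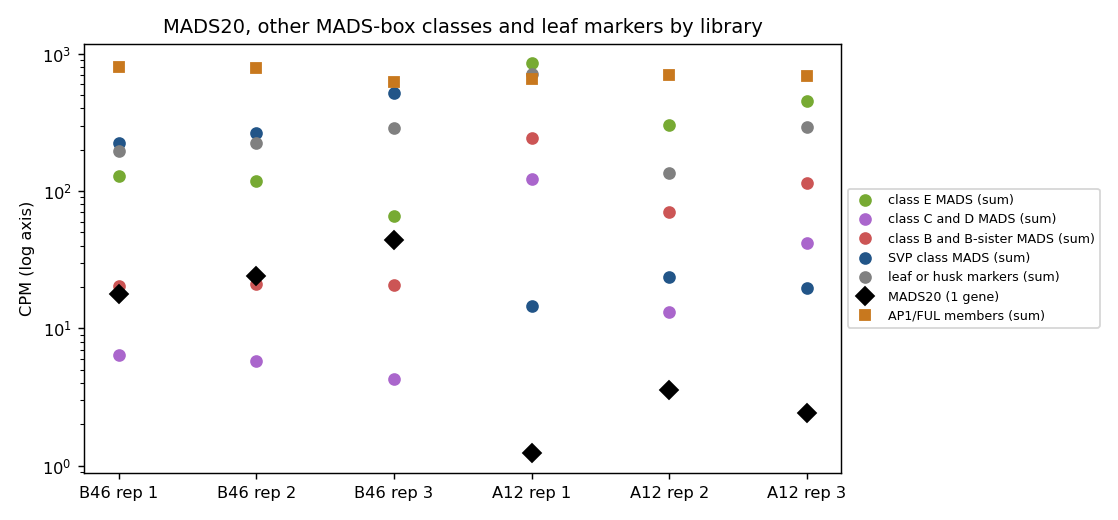
Level per library, in CPM on a log axis, of MADS20 (black diamonds), of the sums over other MADS-box classes and leaf or husk markers (circles), and of the sum over the AP1/FUL members (orange squares). The AP1/FUL sum stays between 626 and 799 CPM, MADS20 and the SVP class drop from the B46 to the A12 libraries, and class E, C and D, and B sums are higher in A12, most of all in replicate 1.

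Among the genes that act around AP1/FUL and SOC1 genes in the flowering pathway, some lists had calls in both directions and others had none. PEBP genes encode florigen and its antagonists, and 2 of 10 tested rose and 2 fell (median -0.54). The shares over all genes tested were 4.61% called as higher and 5.25% as lower in A12. A florigen-type gene named RICE FLOWERING LOCUS T 1 (Zm00004b025155) rose from 0.988 ± 0.278 to 9.92 ± 5.59 CPM (edgeR adjusted p = 0.0082). A gene named CEN-like protein 2 (Zm00004b021735), of the type that opposes florigen, fell from 117, 148 and 488 reads in the B46 libraries to 7, 0 and 1 in those of A12 (edgeR adjusted p = 0.0093, and 0.0640 without A12 replicate 3). The other calls were genes named CEN-like protein 1, of the same type, and they went both ways: Zm00004b007553 was the second gene that rose and Zm00004b039473 the second that fell (edgeR adjusted p = 0.017 and 0.024). Zm00004b007553 was not called when any B46 library, or A12 replicate 3, was left out, and Zm00004b039473 lost its call without A12 replicate 3 and without either of B46 replicates 1 and 2. The PEBP calls were 2 without B46 replicate 1 or 2 and 1 without A12 replicate 3.

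FD-type bZIP factors bring florigen to AP1 promoters in Arabidopsis and rice. Of the 2 tested, the gene named bZIP transcription factor 27 (Zm00004b037698) fell from 78.9 ± 8.40 to 8.01 ± 4.86 CPM (edgeR adjusted p = 0.0071, and 0.0505 without A12 replicate 3). The gene named FD (Zm00004b015550) was at 36.8 ± 1.73 CPM in B46 and 37.1 ± 12.3 CPM in A12 (edgeR adjusted p = 0.98). The 2 LEAFY homologs, meristem identity factors that act with AP1 in Arabidopsis, were not called by edgeR, with a median of -0.81, and 1 of them had an unadjusted p under 0.05. The first, Zm00004b006425, was at 132 ± 17.6 CPM in B46 and 72.5 ± 22.4 CPM in A12 (edgeR adjusted p = 0.058), and 1 of the 2 was called with DESeq2 and by edgeR without A12 replicate 1 or 2.

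SPL factors, which raise FUL and SOC1 class genes with plant age in Arabidopsis, were the longest of the flowering pathway lists. Of 29 tested, 4 rose, 6 fell and 19 were not called (median -0.16). For this and the next 2 lists, the shares over all genes tested were 4.61% called as higher and 5.25% as lower in A12. SPL14 (Zm00004b023553) fell from 80.4 ± 12.3 to 36.8 ± 1.50 CPM and SPL16 (Zm00004b036448) rose from 37.4 ± 2.05 to 65.8 ± 5.59 CPM (edgeR adjusted p = 0.0043 and 0.0052). The SPL calls went from 10 to 3 without B46 replicate 1, without B46 replicate 2 and without A12 replicate 3, and to 6 without B46 replicate 3. Of 5 tested AP2 type repressors, 0 were called by edgeR or DESeq2 (median -0.18). An unadjusted p under 0.05 was found for 1 of them and for 27.2% of all genes tested. The 13 tested photoperiod genes were all named CONSTANS-LIKE, so photoperiod genes of other names were not covered. Of these 13, 1 rose, a CONSTANS-LIKE 5 gene (Zm00004b007041), from 0.345 ± 0.042 to 1.97 ± 0.773 CPM (edgeR adjusted p = 0.017). That call was lost when any B46 library, or A12 replicate 3, was left out, and 5 photoperiod genes were called without A12 replicate 1.

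Genes with the most similar pattern were sought among 12204 tested genes with a Swiss-Prot name and a mean of at least 10 CPM, by Pearson r of log2 CPM over the 6 libraries. For MADS20 the nearest was a respiratory burst oxidase gene (Zm00004b031036, r = 0.999), at 65.8 ± 3.94 CPM in B46 and 48.3 ± 2.45 CPM in A12. An unnamed transcript model annotated as an RNA-directed DNA polymerase homolog (r = 0.999) and a polygalacturonase gene (Zm00004b027107, r = 0.998) followed. The size of their change was much smaller than that of MADS20, with log2 fold changes of -0.45, -1.60 and -0.64, and 294 genes had an r of at least 0.95, so a similar shape over 6 libraries was common. For deviations from the line means, a ribosomal protein S14 gene (Zm00004b021743), an NF-YB3 gene (Zm00004b018550) and an acyl transferase gene (Zm00004b019857) were nearest to MADS20, and 364 genes had an r of at least 0.95.

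For MADS14 of chromosome 1, the nearest by log2 CPM were a phosphatidylinositol transfer protein gene (Zm00004b031148, r = 0.999), an asparagine synthetase gene (Zm00004b032230, r = 0.997) and a metallothionein-like gene (Zm00004b016178, r = 0.997). By deviations from the line means they were an aquaporin gene (Zm00004b008759), a calcium-dependent protein kinase gene (Zm00004b027980) and an ADP-ribosylation factor gene (Zm00004b008619). For MADS14 of chromosome 1, 170 genes had an r of at least 0.95 by log2 CPM and 554 by deviations. For MADS56 of chromosome 1, a TCP21 transcription factor gene (Zm00004b039932, r = 0.989), a Rop exchange factor gene (Zm00004b022425, r = 0.988) and a RAD52-like gene (Zm00004b005777, r = 0.988) were nearest by log2 CPM, and 29 genes had an r of at least 0.95. By deviations from the line means, a knotted-1-like 7 homeobox gene (Zm00004b005003), a chloride conductance regulator gene (Zm00004b012136) and a gene named Factor of DNA methylation 2 (Zm00004b016271) were nearest, and 142 genes had an r of at least 0.95.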

How the data were processed

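Per library, the deposited tables hold whole-number read counts and FPKM (reads scaled by model length and by depth) made by the authors from polyadenylated RNA. The submitters' processing notes list HISAT2 2.0.5 and DESeq2 1.20.0. Build, annotation, read counter and use of strand are not stated in the sources used here. Coordinates therefore carry no build name, and reads of similar, overlapping or antisense genes cannot be told apart. Sequences of the members were not used here.

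Counts were tested in R 4.3.3 with edgeR 4.0.16 (default expression filter, TMM, quasi-likelihood F-test, two-sided, no covariates) over 22741 genes with Benjamini-Hochberg adjustment, after a check of the procedure on simulated data. SE is the log2 fold change divided by the root of F. Alternatives used DESeq2 1.42.0, limma 3.58.1 on log2(FPKM + 0.1) or log2(FPKM + 1), other scaling or filters, a replicate block, summed models, or 1 library fewer. FPKM tests took genes with a mean of at least 0.5. The members and lists were chosen with earlier results of these data known. Named genes are all members, up to 2 called genes per list with the lowest adjusted p, and the 3 most alike genes per measure. Genes named outside this rule are neighbours of members, the tissue marker KNOTTED 1, FD and LEAFY homologs, and further CEN-like and SVP class genes. The MADS21, MADS32 and AGL14 genes are also outside it. These genes were chosen after their values were seen. Lists were matched on Swiss-Prot names. The libraries of a line are separate pools, and p-values measure the spread between pools.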

Additional observations from a re-analysis of the deposited data

How the results depend on the processing

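Over all genes, 2242 were called by edgeR, 3511 by DESeq2, 967 with a replicate block, and 401 to 4446 when 1 library was left out (4446 without A12 replicate 1, 401 without A12 replicate 3, and 714, 432 and 1410 without B46 replicates 1, 2 and 3). Of the members, 1 was called by edgeR and 2 by DESeq2, and 1 to 4 when 1 library was left out, the 4 without A12 replicate 1. MADS20 stayed called in all 14 alternatives, with log2 fold changes from -3.97 to -2.97. Of 124 member values under alternatives, 120 kept their side of the threshold, 4 passed it that had not, and 0 reversed a call. Same-numbered libraries did not deviate together (r = -0.12, -0.01 and 0.01 for numbers 1, 2 and 3). Libraries of different numbers gave r from -0.12 to 0.15. The main test treats the libraries as not paired, which these values cannot settle. With the block, the MADS20 log2 fold change was -3.57 (edgeR adjusted p = 0.012), the SPL calls went from 10 to 6, and the counts for the members and the other pathway and MADS-box lists did not change. DESeq2 called 1 LEAFY homolog and 3 photoperiod genes, against 0 and 1 by edgeR. With 3 pools per line, the intervals of the short MADS14 model (-1.28 to 0.33) and of MADS56 of chromosome 9 (-0.37 to 1.02) leave room for changes of either sign.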

Other observations

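MADS-box genes outside the named classes were also measured, and their values were looked at after the rest. Of 9 such tested genes, edgeR and DESeq2 called 0, and 1 had an unadjusted p under 0.05 in edgeR, against 27.2% of all genes tested. The 2 genes named MADS32, a grass-specific factor of floral organ and meristem identity in rice, were abundant and resembled MADS15 of chromosome 7 in their low B46 replicate 3 and low A12 replicate 1. On chromosome 3, Zm00004b019097 had 3881, 3376 and 1718 reads in the B46 libraries and 2779, 4764 and 4572 in those of A12 (log2 fold change 0.49 with SE 0.32 by edgeR, adjusted p = 0.37). On chromosome 8, Zm00004b027415 had 2718, 2386 and 1048 reads in the B46 libraries and 1367, 3027 and 3207 in those of A12 (log2 fold change 0.36 with SE 0.41 by edgeR, adjusted p = 0.61). A gene named AGL14 (Zm00004b033528, chromosome 9), which in Arabidopsis belongs to the SOC1 group but falls outside the names used here, had 86, 81 and 64 reads in the B46 libraries and 29, 67 and 63 in those of A12 (log2 fold change -0.48 with SE 0.34 by edgeR, adjusted p = 0.41). None of these 3 was called in any of the 14 alternatives.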
